A study of Rattus norvegicus with 18 samples.

Results

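The miR-29 family was followed through the maturation of the rat cerebral cortex in small RNA libraries of 8 developmental stages. Its 3 members, rno-miR-29a, rno-miR-29b and rno-miR-29c, were found among the 691 mature rat miRNAs of RefSeq and the candidate miRNAs of the study, 790 sequences in all. A clean tag, which is a unique trimmed read sequence with its count, was assigned to a member when both were identical over their common length. Its start could be shifted by up to 3 nt in either direction and its end could pass the annotated 3' end by no more than 3 nt.

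The animals were Sprague Dawley rats without any treatment or transgene. Tissue was taken at embryonic days 10, 13 and 17 (E10, E13 and E17), on the day of birth (P0), and at postnatal days 3, 7, 14 and 28 (P3, P7, P14 and P28). There were 2 separate samples from the day of birth and 1 from every other stage. All 9 tissue samples were read in 2 technical runs, which gave 18 libraries. The labels give forebrain for E10 and E13 and cortex for the later stages, and the study's methods give whole cortex and dorsolateral cortex without meninges, so that stage and dissected tissue cannot be told apart in comparisons of E10 and E13 with later stages. Nothing in the sources used here says how many animals a tissue sample held. A run is a repeat reading of the same tissue sample, so the tissue sample was the unit of every test.

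MicroRNAs are short RNAs that guide Argonaute proteins to messenger RNAs, mainly by pairing of the seed, bases 2 to 8 of the miRNA, and lower the output of their targets. The miR-29 family is known for targets that encode collagens and other proteins of the extracellular matrix, DNA methyltransferases, and pro-apoptotic proteins of the BH3-only group, and it is known as a family that accumulates as neurons mature. Both strands of a hairpin precursor can give a small RNA, and in this family the 3' arm gives the abundant strand.

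The mature sequences are shown because the members share the seed and differ only downstream of it. The capitals mark the seed.
rno-miR-29a: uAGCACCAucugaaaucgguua
rno-miR-29c: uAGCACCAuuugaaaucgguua
rno-miR-29b: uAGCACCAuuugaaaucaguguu

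These are RefSeq sequences of the GRCr8 assembly, and they were identical to those spelled by the primers of the study. Counted from 1 at the mature 5' end, miR-29a and miR-29c differed by C10U alone. The change from miR-29c to miR-29b was G18A, U21G and A22U, after 17 shared bases, and miR-29b was 1 nt longer, at 23 nt. The members come from 4 hairpins in 2 pairs. Mir29a (chr4:60617955-60618042, minus strand) and Mir29b1 (chr4:60618334-60618414, minus strand) were 291 bases apart, and Mir29b2 (chr13:109098831-109098911, plus strand) and Mir29c (chr13:109099359-109099446, plus strand) were 447 bases apart. Mature miR-29b is the same from Mir29b1 and Mir29b2, so that its reads could not be divided between the hairpins. In the RefSeq gene table, Mir29b2 and Mir29c lay inside the span of the long non-coding RNA gene LOC102550527, and Mir29a, Mir29b1 and Mir29c each overlapped another annotated miRNA gene, Mir3556a, Mir3587 and Mir3556b in that order. Exons and introns of the long gene were not examined here.

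The libraries held 4899010 to 11043948 clean reads in run 1 and 12769251 to 16590379 in run 2. Levels are given in TPM, which here means reads per 1000000 clean reads of a library, averaged over both runs and limited to tags seen in both. They are not scaled by the TMM factors of the fits below, which adjust for the make-up of the libraries. The order of samples can change with that scaling. Of the reads that carried the family seed at bases 2 to 8, between 93.1% and 98.5% of a library fitted one of the 3 members with the mature 5' end. Library E10 run 2 stood apart from the other 17 in the 3' ends of miRNAs in general, as given with the 3' ends, and each test was repeated without it.

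All 3 members stayed low through P3 and were higher at P7, P14 and P28, and miR-29a was the most abundant of them in all 18 libraries. The level of miR-29a was 741 TPM at E10, 618 at E13, 698 at E17, 1413 and 311 in the P0 samples, 535 at P3, 5324 at P7, 10779 at P14 and 28039 at P28. The lowest late sample, P7, stood 3.77-fold above the highest earlier one, the first P0 sample. Among the 691 mature rat miRNAs, miR-29a ranked 83 by level at E10 and 7 at P28. The P0 samples, 862 ± 779 TPM (SD, n = 2), held both the lowest and the highest level of the 6 earlier samples in TPM, so that no order could be read from TPM among the stages from E10 to P3. Scaled by the TMM factors (2.2 at E10, 0.541 in the second P0 sample), E10 was the lowest earlier sample.

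The level of miR-29b was 17.3 TPM at E10, 8.53 at E13, 7.47 at E17, 23.8 and 5.35 at P0, 7.54 at P3, 109 at P7, 142.4 at P14 and 1252 at P28. With tags seen in both runs the groups did not overlap, and the P0 samples, 14.6 ± 13.1 TPM (SD, n = 2), again held the lowest and the highest earlier level in TPM. Scaled by the TMM factors (1.56 at E13, 0.541 in the second P0 sample), E13 was the lowest. Within the late group miR-29b was 8.79-fold higher at P28 than at P14, in a single tissue sample of each stage. The E10 value depended on which tags were taken. With all tags of either run, E10 held 29.6 TPM in run 1 and 45.2 TPM in run 2, and the groups overlapped in run 2, where P7 held 29.4 TPM.

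The level of miR-29c was 209 TPM at E10, 51.5 at E13, 35.1 at E17, 118 and 41.8 at P0, 96.4 at P3, 258 at P7, 420 at P14 and 1309 at P28. In TPM, E10 was the highest earlier sample and E17 the lowest, with E10 5.96-fold above E17, and the P0 samples held 79.9 ± 53.8 TPM (SD, n = 2). Scaled by the TMM factors (2.2 at E10, 1.56 at E13, 0.666 at P3), P3 was the highest earlier sample and E13 the lowest. The late samples were above the earlier ones by a narrow margin in TPM, with 1.24-fold between E10 and P7. In run 2 taken by itself E10, at 256 TPM, was above P7, at 243 TPM.

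**Figure D1:**
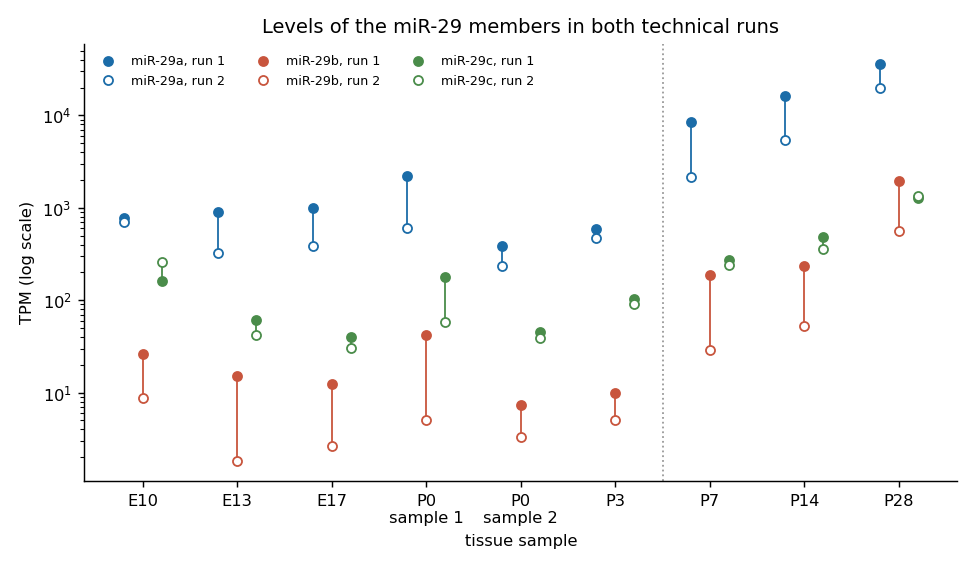
TPM on a log scale (vertical axis) of the 3 members in each of the 9 tissue samples (horizontal axis), with filled points for run 1, open points for run 2 and a line joining the runs of a tissue sample. The dotted line parts the 6 earlier samples from P7, P14 and P28, where miR-29a and miR-29b lie above every earlier sample of the same run, and the first P0 sample reaches 2217 TPM of miR-29a in run 1 against 608 in run 2.

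Because most stages had 1 tissue sample, the change over development was tested in 1 model across all 9 samples. For each of the 564 sequences that reached 10 counts in 2 or more tissue samples, edgeR's quasi-likelihood test gave the slope of the log2 count on the stage order, from 1 at E10 to 8 at P28. All 3 members rose, where 17.4% of the 564 sequences rose and 43.3% changed in either direction. The slope of miR-29a was 0.88 per stage on the log2 scale (SE 0.11, adjusted p = 8.07e-05 by edgeR with Benjamini-Hochberg adjustment). That of miR-29b was 0.85 (SE 0.16, edgeR adjusted p = 0.00104) and that of miR-29c was 0.57 (SE 0.11, edgeR adjusted p = 0.00143). The median slope of all sequences tested was -0.09.

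The 3 late samples were then set against the 6 earlier ones in a model of the same kind. All 3 members rose again, where 11.0% of the sequences tested rose and 12.1% had late levels in TPM that all lay above every earlier one. The log2 change was 4.18 for miR-29a (SE 0.61, edgeR adjusted p = 0.0035), 5.03 for miR-29b (SE 0.79, edgeR adjusted p = 0.00447) and 2.91 for miR-29c (SE 0.60, edgeR adjusted p = 0.0147), against a median of -0.54 over all sequences. Without P28 the late change of miR-29a was 3.32 (edgeR adjusted p = 0.0335). Without P28 that of miR-29b was 3.03 (edgeR adjusted p = 0.0335) and its slope was 0.56 (edgeR adjusted p = 0.0201). The call for miR-29c was lost without P28 (log2 change 2.11, edgeR adjusted p = 0.077) and without TMM normalization, which adjusts for the make-up of the libraries (2.87, edgeR adjusted p = 0.057). TMM factors ran from 0.541 for the second P0 sample to 2.2 for E10, and without them the median slope was -0.195 and the share of rises among the called slopes was 19.6% in place of 40.2%.

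Beside these levels, other miRNAs moved between the groups. In whole tissue, fewer cells of a type and less of the RNA per cell cannot be told apart. Of the miR-17-92 and paralogous clusters, which are known from dividing cells, 19 of the 21 sequences were tested and all 19 fell in the late samples by edgeR, where 28.2% of all sequences changed in either direction, and their median log2 change was -3.35. Fewer of the 19 calls stood without P28 (1), without P14 (3) and without TMM (1), while all 19 estimates stayed below 0 and their medians were -3.03, -3.28 and -3.74. Their summed level was 2024 to 20854 TPM in the earlier and 565 to 744 TPM in the late samples. The neuron list (miR-128, miR-138 and miR-218) summed to 1885 to 116003 TPM in the earlier and 147020 to 175000 in the late samples, and 3 of its 8 tested sequences rose along the stages, while 0 of 8 were called in the late comparison. That count depended on the setting, with 5 of 8 rising by the alternative fit, DESeq2, and 3 of 8 without P3. The oligodendrocyte list (miR-219 and miR-338) summed to 80.1 to 2297 TPM in the earlier and 1774 to 10702 in the late samples, with 3 of 6 rising and 2 falling along the stages and 1 rising and 1 falling in the late comparison. Its highest earlier level was at E10. Along the stages only 1 of 6 rose without P28, without TMM and in run 1 alone. Of all 564 sequences, 25.9% fell along the stages and 17.2% fell in the late comparison, beside the shares that rose given above. The part of changing cell types in the rise of the family was not tested.

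At E10, where miR-29c was at its earlier maximum in TPM, other lists were high as well. The oligodendrocyte list, at 2297 TPM, and the miR-17-92 list, at 20854 TPM, were also at their earlier maximum there. With levels scaled by the TMM factors (2.2 at E10, 0.666 at P3), miR-29c was higher at P3 than at E10. The mesenchymal and pericyte list (miR-143, miR-145, miR-199a and miR-214) summed to 31332 TPM at E10 and 42313 at E13, against 546 to 1323 in the other earlier samples and 2894 to 4168 in the late ones. Of its 7 tested sequences, 2 rose and 3 fell along the stages, and 2 rose and 0 fell in the late comparison. The late rises numbered 0 without P14, without P28 and without TMM. The rises along the stages numbered 0 without P28, without TMM and in run 1 alone. The erythroid list (miR-144 and miR-451) reached 1183 TPM in its highest earlier sample and 34.8 to 70.3 in the late ones, with 3 of 3 tested sequences falling along the stages and 0 of 3 called in the late comparison. Without E10, and in run 1 alone, 0 of 3 were called along the stages, with all 3 estimates below 0. The leukocyte and microglia list (miR-142 and miR-223) summed to 7.01 to 73.6 TPM in the earlier and 20.1 to 36.4 in the late samples, and the endothelial list (miR-126) to 48.7 to 173 and 155 to 202 TPM, with none of their tested sequences called in either direction. Their part in the level of miR-29c at E10 was not tested. miR-124, miR-150 and miR-486 had no entry in the table of mature sequences.

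The members did not keep their proportions. Of the summed family reads, miR-29a made up 76.6% at E10, 94.3% at E17, 83.7% at P3 and 95.0% at P14. miR-29c made up 21.6% at E10, 4.74% at E17, 15.1% at P3 and 3.70% at P14. miR-29b was the smallest part of the averaged runs, from 1.01% at E17 to 4.09% at P28, but at P28 in run 1 it was 4.96%, above miR-29c at 3.23%. The summed family took 0.0358% of the clean reads in the second P0 sample, the lowest share, and 3.06% at P28, the highest.

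The ratio of miR-29a to miR-29c was 3.55 at E10, 12.0 at E13, 19.9 at E17, 12.0 and 7.44 at P0, 5.54 at P3, 20.6 at P7, 25.7 at P14 and 21.4 at P28. It was high at E17, then lower from P0 to P3 and high again from P7, and the late samples lay above all earlier ones, with P7 close to E17. The mean log2 ratio was 4.49 ± 0.17 (SD, n = 3) in the late and 3.11 ± 0.89 (SD, n = 6) in the earlier samples (two-sided exact permutation test, p = 0.0238, which is the smallest p that 3 against 6 samples allow, and 0.0857 after Benjamini-Hochberg adjustment over the 18 single values tested in this way). In run 2 alone the groups overlapped, since E17 was at 12.7 and P7 at 8.93 (exact permutation p = 0.0952).

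The ratio of miR-29c to miR-29b went the other way. It was 12.0 at E10, 6.04 at E13, 4.69 at E17, 4.95 and 7.81 at P0, 12.8 at P3, 2.37 at P7, 2.95 at P14 and 1.05 at P28, so that miR-29b had nearly reached miR-29c at P28. The late mean was 0.96 ± 0.79 (SD, n = 3) and the earlier mean 2.89 ± 0.63 (SD, n = 6) on the log2 scale (exact permutation p = 0.0238, adjusted p = 0.0857), and with tags seen in both runs the groups were apart in run 1 and in run 2 taken singly. With tags of either run they overlapped in run 2, where the log2 ratio was 2.51 at E10, 3.05 at P7 and 2.78 at P14. At E10 the ratio was 6.24 in run 1 and 29.2 in run 2, and without library E10 run 2 the earlier mean was 2.74 on the log2 scale, with the groups still apart. The ratio of miR-29a to miR-29b overlapped between the groups, at 22.4 to 75.7 in the late and 42.8 to 93.4 in the earlier samples (exact permutation p = 0.286, adjusted p = 0.429).

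**Figure D2:**
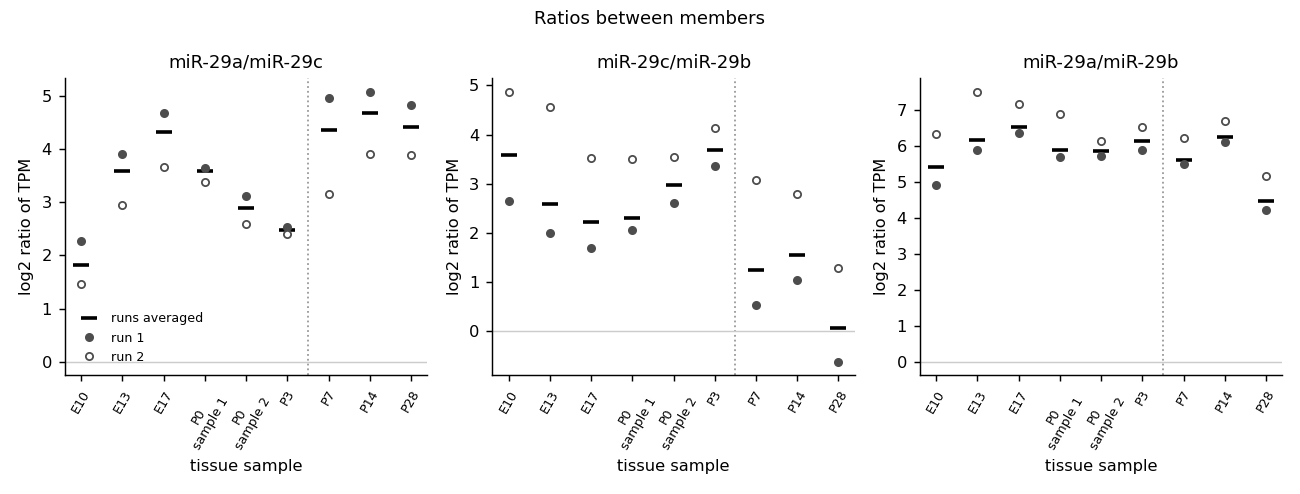
Log2 ratio of the TPM of 2 members (vertical axes) in each tissue sample (horizontal axes), with bars for the averaged runs, filled points for run 1 and open points for run 2. The dotted line parts the earlier from the late samples. The late samples are higher for miR-29a to miR-29c and lower for miR-29c to miR-29b, and in all 9 samples run 1 lies above run 2 for the first ratio and below it for the second.

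The run itself moved these ratios. The level of miR-29a was higher in run 1 than in run 2 in 9 of 9 tissue samples, by 1.10 to 3.92-fold, and that of miR-29b in 9 of 9, by 1.95 to 8.47-fold. miR-29c was higher in run 1 in 7 of 9, at 0.632 to 3.05-fold. As a result the ratio of miR-29a to miR-29c was 31.0 in run 1 and 8.93 in run 2 at P7, and 28.4 and 14.8 at P28. At P28 miR-29b was above miR-29c in run 1, at 1949 against 1269 TPM, and below it in run 2, at 554 against 1349 TPM. The order of these 2 members at P28 therefore depended on the run.

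Since 1 base separates miR-29a from miR-29c, tags with another base at position 10 of miR-29a were counted to see how far misreading of the abundant member could feed the rare one. In the 6 late libraries, tags with C10A came to 0.0793% of the miR-29a reads at P28 run 2 and to at most 0.218%, in P7 run 1. C10G came to at most 0.0401%. At the other C bases examined, in the same 6 libraries, C6T reached 0.314%, C7T 0.299% and C17T 0.173%. In the earlier libraries C6T reached 0.681% (21 reads) and C7T 0.389% (12 reads), both in the second P0 sample run 2. C17T reached 0.0918% there, in E17 run 1. The tags equal to miR-29c, C10T in the letters of the reads, came to 3.06% to 3.60% of the miR-29a reads in run 1 and 6.92% to 11.6% in run 2. At E10 they came to 21.9% in run 1 and 37.1% in run 2. For miR-29b, tags with G18A that did not equal miR-29b came to at most 0.340% of the miR-29c reads in the late libraries. The share of miR-29c reads that were misread miR-29a was not measured directly, as no tag shows it.

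In its 3' ends miR-29b stood apart from the other members. Among reads with the mature 5' end, miR-29a and miR-29c mostly ran the full 22 nt, in 83.4% to 95.4% and in 71.5% to 97.4% of reads. miR-29b mostly did not. In 17 of 18 libraries 78.7% to 90.7% of its reads ended at base 20, 3 nt short of the annotated end. The leading tags are shown in the letters of the reads, with the last 3 bases in capitals.
rno-miR-29a, 861486 reads: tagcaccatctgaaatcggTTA
rno-miR-29c, 50932 reads: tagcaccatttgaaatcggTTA
rno-miR-29b, 26950 reads: tagcaccatttgaaatcAGT
rno-miR-29b, 608 reads: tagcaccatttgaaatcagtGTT

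The second of the miR-29b tags, with 608 reads over 18 libraries, is the annotated miRNA, and 463 of these reads came from library E10 run 2. The short form ends inside the hexamer that closes the annotated miRNA, in capitals here.
rno-miR-29b, annotated: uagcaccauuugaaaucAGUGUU

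This hexamer is known from work on human miR-29b as an element that directs the miRNA to the nucleus. Reads that held all of it were 78.2% of the miR-29b reads in E10 run 2, 581 of 743, and 0% to 4.08% in each of the other 17 libraries, with a median of 1.23%. The deepest counts were at P28, where 38 of 19508 reads in run 1 and 152 of 9229 in run 2 held it. The level of miR-29b given above was thus mostly a level of the 20-nt form. When only tags identical to the 23-nt sequence were counted, the slope of miR-29b was 0.02 (edgeR adjusted p = 0.956), and this value rested on library E10 run 2. Without that library, a setting chosen after seeing the data, the slope of the 23-nt form was 1.72 (edgeR adjusted p = 1.35e-05) and its late change was 5.44 on the log2 scale (edgeR adjusted p = 0.0117). The reads behind these fits were few, with 26 in run 1 and 100 in run 2 at P28, 13 in run 2 at P14, 2 in run 2 at P7, 4 over both runs at P3 and 0 in the remaining earlier libraries, so that the size of the fitted change depends on the prior count.

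**Figure D3:**
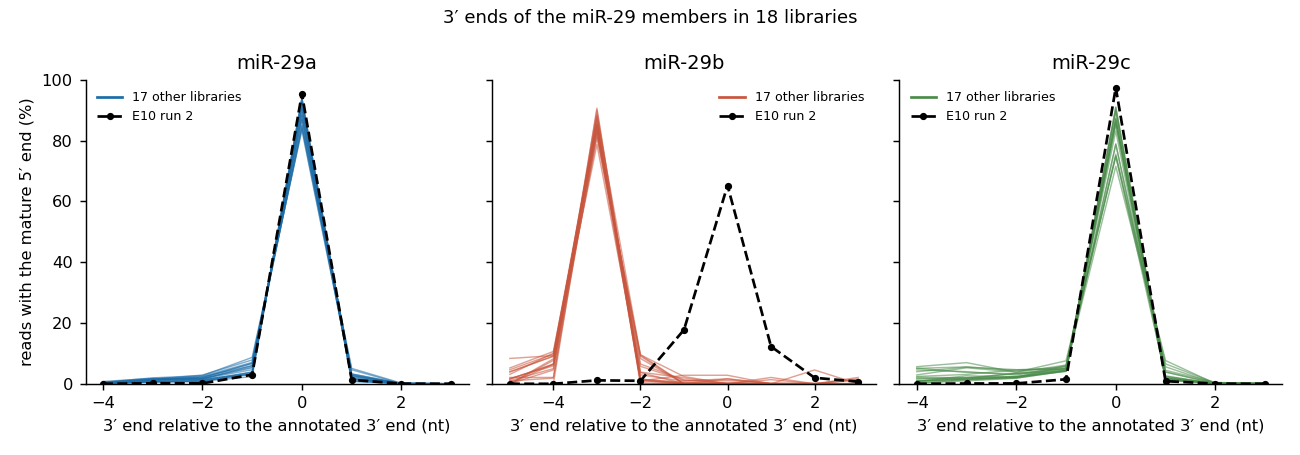
Share of reads with the mature 5' end (vertical axis, percent) that end at each position relative to the annotated 3' end (horizontal axes, nt), with 1 line per library and a black dashed line for E10 run 2. miR-29a and miR-29c peak at 0 in all libraries, and miR-29b peaks at -3 in 17 libraries and at 0 in E10 run 2, at 65.2%.

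In E10 run 2, 463 of 710 miR-29b reads with the mature 5' end, 65.2% (95% Wilson interval 61.6 to 68.6), ended at base 23 and 8 ended at base 20. In run 1 of the same tissue sample 265 of 312 ended at base 20, 84.9% (80.5 to 88.5), and 0 ended at base 23, which allows a share of up to 0.962% (3 counts). Intervals cover counting error only. The difference lay between 2 readings of 1 tissue sample and was no difference between stages. It extended to other miRNAs. Among rat miRNAs with at least 100 reads, the commonest 3' end was 3 or more nt short of the annotation for 0 of 345 in E10 run 2, for 54 of 287 in E10 run 1, and for 13.5% to 28.8% in each library other than E10 run 2. Between the runs of E10 the commonest end differed for 54.6% of 282 miRNAs, against 16.0% to 35.7% between the runs of the other tissue samples.

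**Figure D4:**
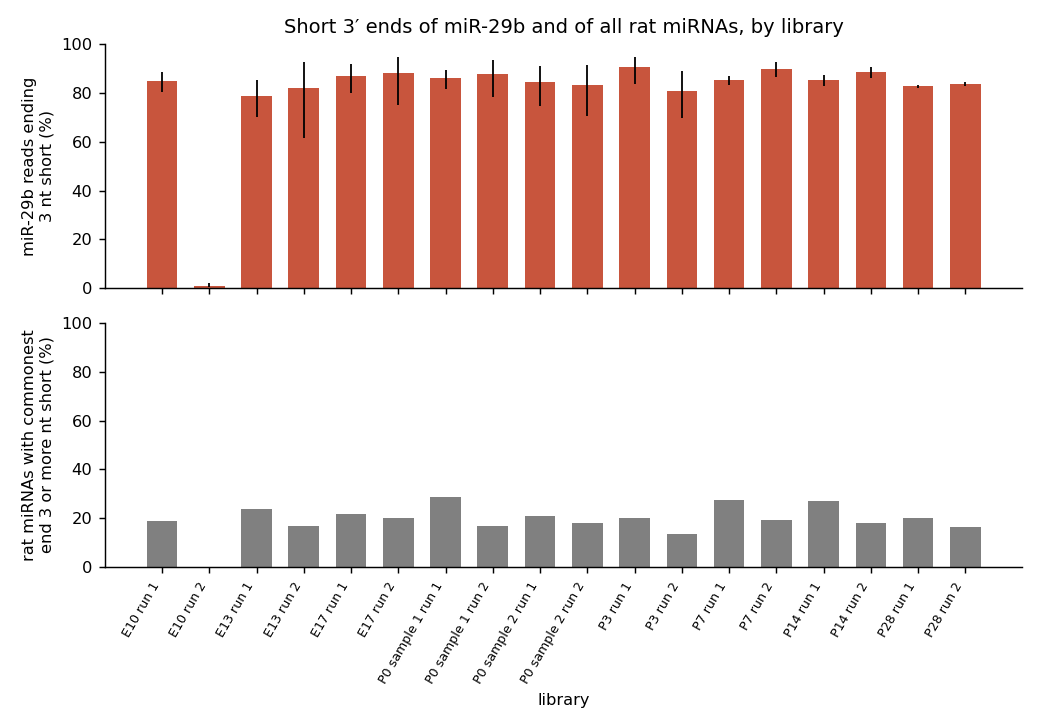
Upper panel, share of miR-29b reads (percent) that end 3 nt short of the annotated 3' end in each library, with 95% Wilson intervals. Lower panel, share of rat miRNAs with at least 100 reads in a library (percent) whose commonest 3' end is 3 or more nt short. E10 run 2 is near 0 in the upper panel, at 1.13%, and at 0 in the lower one.

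With tags of both runs, the miR-29b tags of E10 run 2 that ended at base 23 were left out, since run 1 held none, but tags ending at base 22 and base 26 were in both runs. The mean 3' end of miR-29b at E10 was therefore still 21.92 in run 2, against 20.15 in run 1. The mean 3' end of miR-29a was 21.87 ± 0.02 in the late and 21.91 ± 0.02 in the earlier samples, that of miR-29b was 19.90 ± 0.03 and 20.17 ± 0.42, and that of miR-29c was 21.69 ± 0.04 and 21.79 ± 0.08 (SD, n = 3 and 6). The share of shortened miR-29c reads was 15.3% ± 0.3 in the late and 11.4% ± 3.1 in the earlier samples. The late samples were apart from the earlier ones for this share and for the mean ends of miR-29a and miR-29b, each at the smallest p possible, 0.0238 by the exact permutation test, and at 0.0857 after adjustment. In single runs that p was reached only by the mean end of miR-29b in run 1. By the exact permutation test, p in run 1 and run 2 was 0.0714 and 0.0952 for the share of shortened miR-29c reads and 0.0714 and 0.0476 for the mean end of miR-29a, and it was 0.214 for the mean end of miR-29b in run 2. Without library E10 run 2 the late minus earlier difference in the mean end of miR-29b was -0.125 nt in place of -0.273 nt. For miR-29a, the change in the mean end was -0.04 nt, while the runs of one tissue sample differed by 0.0295 to 0.111 nt.

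Reads 1 nt past the mature end showed the same base composition in miR-29a and miR-29c. Of 19515 such miR-29a reads over the 18 libraries, 68.2% ended in A and 30.9% in T, and of 1704 miR-29c reads 67.0% ended in A and 31.2% in T. In both hairpins the base after the mature end is U, so that the more common A is not the base of the hairpin. For miR-29b there were 114 such reads, 87 of them in E10 run 2, with 57.9% T, 36.8% A and 0% C, although Mir29b1 has C at that position and Mir29b2 has U.

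The 5' end, which sets the seed, was steadier. A median of 94.5% of miR-29a, 93.9% of miR-29b and 97.6% of miR-29c reads per library began at the mature 5' end. The share with a shifted 5' end was 5.62% ± 0.53 in the late and 5.03% ± 0.73 in the earlier samples for miR-29a (SD, n = 3 and 6, exact permutation p = 0.286). For miR-29c it was 2.74% ± 0.23 and 1.99% ± 0.54 (exact permutation p = 0.0714, adjusted p = 0.161). For miR-29b, with few reads in the earlier samples, it was 5.26% ± 1.55 and 3.88% ± 3.81 (exact permutation p = 0.595), and the direction turned with tags of either run, where the late minus earlier difference was -1.72 percentage points in place of 1.39. A start 1 nt upstream, which adds the C that precedes the mature end in all 4 hairpins, made up a median of 2.15% of miR-29a, 3.37% of miR-29b and 0.249% of miR-29c reads.

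The 5' arms of the 4 hairpins can be told apart by sequence, unlike mature miR-29b, and were counted to see which hairpins gave reads. The leading 5' arm tag of each is shown in the letters of the reads.
Mir29a, 61 reads: actgatttcttttggtgttca
Mir29b1, 19 reads: gctggtttcatatggtggtttaga
Mir29b2, 57 reads: ctggtttcacatggtggctta
Mir29c, 73 reads: tgaccgatttctcctggtgtt

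The 5' arm reads were few, 211 for Mir29a, 56 for Mir29b1, 270 for Mir29b2 and 460 for Mir29c over all 18 libraries. Mature reads outnumbered them 4927-fold for Mir29a and 135-fold for Mir29c. The 5' arm of Mir29c was at 3.69 TPM at E10, 0.127 at E17, 1.08 at P3, 1.28 at P7, 3.30 at P14 and 6.48 at P28. Of the late samples only P28 lay above E10, whereas mature miR-29c was above E10 in TPM at P7, P14 and P28. The 5' arm of Mir29a was at 0.621 TPM at E10, 0.240 at P7 and 4.72 at P28, while mature miR-29a was 9.96-fold higher at P7 than at P3. Of the 5' arms that could have come with miR-29b, that of Mir29b2 was at 5.41 TPM and that of Mir29b1 at 1.07 TPM at P28. These levels say nothing of how much mature miR-29b each hairpin gave.

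With the annotated ends, the slope of rno-miR-29a-5p was 0.57 (SE 0.13, edgeR adjusted p = 0.00477) and that of rno-miR-29b-5p, from Mir29b2, was 0.49 (SE 0.11, edgeR adjusted p = 0.00402). That of rno-miR-29c-5p was 0.33 (SE 0.13, edgeR adjusted p = 0.0525) and did not pass the threshold, which it passed in run 2 alone (0.37, edgeR adjusted p = 0.0431), with tags of at least 20 nt (0.40, edgeR adjusted p = 0.021) and with the run number as a replicate block (0.33, edgeR adjusted p = 0.0105). It was lower without TMM (0.18, edgeR adjusted p = 0.365) and without P28 (0.25, edgeR adjusted p = 0.223). In the late samples rno-miR-29a-5p rose by 2.69 on the log2 scale (edgeR adjusted p = 0.0328) and rno-miR-29b-5p by 2.26 (edgeR adjusted p = 0.0294), and both calls were lost without P28 (1.27 and 1.45, edgeR adjusted p = 0.306 and 0.198). They were also lost, at changes of similar size, without P14 (3.05 and 2.48, edgeR adjusted p = 0.0665 and 0.0737), without E17 (2.55 and 2.17, edgeR adjusted p = 0.064 and 0.0567) and without TMM (2.72 and 2.27, edgeR adjusted p = 0.0608 for both). With tags seen in both runs rno-miR-29b-5p also missed the threshold (3.31, edgeR adjusted p = 0.105). Without P28 both slopes also missed the threshold (0.36 and 0.38, edgeR adjusted p = 0.114 and 0.0574), and without E10 the slope of rno-miR-29c-5p passed it (0.63, edgeR adjusted p = 0.00329). The late change of rno-miR-29c-5p was 1.92 (edgeR adjusted p = 0.0627), 1.68 without TMM (edgeR adjusted p = 0.182) and 1.49 without P28 (edgeR adjusted p = 0.232). It passed the threshold by DESeq2 (2.12, adjusted p = 0.0146), with the replicate block (1.996, edgeR adjusted p = 0.00632), with tags of at least 20 nt (2.25, edgeR adjusted p = 0.0348), without E10 (2.17, edgeR adjusted p = 0.0386) and without library E10 run 2 (2.21, edgeR adjusted p = 0.0351). No tag fitted the annotated rno-miR-29b-1-5p within 3 nt, since the reads of that arm began farther upstream.

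**Figure D5:**
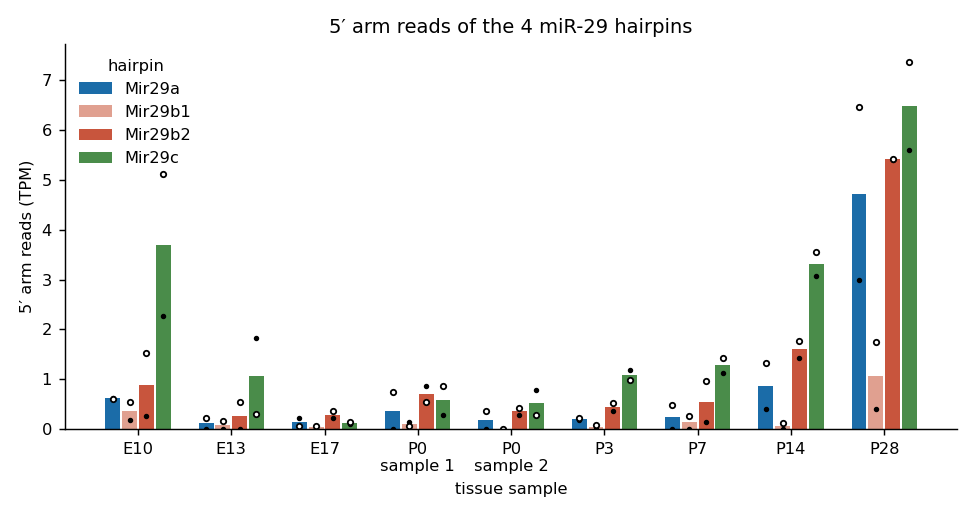
TPM of tags that are an exact part of the 5' arm of each hairpin (vertical axis) in each tissue sample (horizontal axis), with bars for the mean of both runs, filled points for run 1 and open points for run 2. All 4 are at their highest at P28, where the Mir29c arm reaches 6.48 TPM, and the Mir29c arm is also high at E10.

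The patterns of the members over the 9 tissue samples were alike, with Pearson's r of log2(TPM + 1) of 0.98 between miR-29a and miR-29b, 0.95 between miR-29b and miR-29c and 0.91 between miR-29a and miR-29c. Among the other sequences with a mean level of at least 50 TPM, the 3 closest to miR-29a were rno-miR-22-5p (r = 0.95), rno-miR-219a-2-3p (r = 0.94) and rno-miR-22-3p (r = 0.92). Those closest to miR-29b were rno-miR-22-5p (r = 0.93), rno-miR-219a-2-3p (r = 0.91) and rno-miR-24-3p (r = 0.90). Those closest to miR-29c were rno-miR-24-3p (r = 0.97), rno-miR-129-1-3p (r = 0.93) and rno-miR-129-2-3p (r = 0.92), and the last 2 are near-identical and share reads. These correlations describe 9 points from the same libraries, in which depth, run and stage are shared.

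miR-219 is known for its role in oligodendrocyte differentiation, but the oligodendrocyte list as a whole did not follow miR-29a. Of its 6 tested sequences 3 rose and 2 fell along the stages, and it summed to 2297 TPM at E10 and 1774 at P7. rno-miR-219a-2-3p was at 58.8 TPM at E10, 281 at E13, 33.6 at E17, 76.2 and 5.88 at P0, 62.3 at P3, 1687 at P7, 3528 at P14 and 10431 at P28. Like miR-29a it was low through P3 and high from P7, and it was also higher in run 1 at P28, with 17547 TPM against 3314. rno-miR-24-3p, the closest to miR-29c, was at 731 TPM at E10, 322 at E17, 647 at P7 and 1345 at P28, so that in TPM it shared the high value at E10 with miR-29c and overlapped between the earlier and the late samples. Scaled by the TMM factors (2.2 at E10, 0.666 at P3), both were higher at P3 than at E10.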

How the data were processed

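Small RNA from rat cortex, 16 to 35 nt per the labels (the study's text gives a lower limit below that), was sequenced on the Illumina Genome Analyzer. The authors removed low quality reads, adapters and contaminants and grouped identical reads, and each deposited table lists, for 1 library, its unique clean tags with their raw count and length. Tags of at least 18 nt were matched here to RefSeq mature sequences (GRCr8) and the 101 candidates of the study, 99 of them different from RefSeq. A tag that fitted several sequences was counted for each, which held for 1.99% of matched reads and, within the family, for 8 of 335 tags with 41 of 1136140 reads. Mature miR-29 sequences were also assembled from the stem-loop and forward primers of the study.

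Members and lists were chosen with earlier results of these data known. Slopes and the late change (P7, P14 and P28 against the 6 earlier samples) came from quasi-likelihood fits in edgeR 4.0.16 under R 4.3.3 (TMM, counts summed over runs, tags of either run, Benjamini-Hochberg adjusted p under 0.05), and SE is the estimate divided by the root of F. DESeq2 1.42.0 was the alternative. Ratios and ends were compared over 84 splits by exact permutation tests in scipy 1.17.1, adjusted together over 18 values. Scripts used Python 3.11.15, numpy 2.4.6, pandas 2.3.3 and matplotlib 3.10.9, with limma 3.58.1 loaded by edgeR. Tag matching and the permutation test were checked on made-up data with known answers. The fit was checked on simulated counts with less spread between samples than these data had. That check therefore does not show how the fit does at the spread of these samples. Alternatives were run 1 or run 2 alone, other tag rules, no TMM, no filter, primer and candidate sequences only, a replicate block and each tissue sample left out. P-values measure the spread between 9 tissue samples. Since every stage but P0 had 1 tissue sample, this is mostly spread between stages and not between replicates. The genes reported singly were the members, the 5' arms and the 3 sequences most like each member.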

Additional observations from a re-analysis of the deposited data

Results flagged for a closer look

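Among the 6 earlier samples, 21 values were examined for a sample far from the others, by a criterion that chance meets in about 1 of 20 groups, and 3 met it, all in the 3' ends of miR-29b. For both shares below the other 5 samples were at 0, so that any read above 0 in 1 sample meets the criterion and the chance rate does not hold for them. With tags seen in both runs, the share of miR-29b reads past the annotated end was 1.57% at E10 and 0% in each of the other earlier samples. The mean 3' end of miR-29b was 21.04 at E10, and the nearest other value was 20.05. The share of miR-29b reads exactly at the annotated end was 2.24% at P3 and 0% in the other earlier samples, from 3 reads in run 1 (2.88%) and 1 read in run 2 (1.59%). Both E10 values include library E10 run 2. In run 1 alone the share past the end at E10 was still 1.05%, and without library E10 run 2 the mean earlier 3' end of miR-29b was 20.02 ± 0.07 (SD, n = 6).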

How the results depend on the processing

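Across the other settings, miR-29a kept the direction and the call of its slope and of its late change in 22 of 22 fits each, and miR-29c kept its slope in 22 of 22. The late change of miR-29c was no longer called without TMM (2.87) and without P28 (2.11, with a range of 2.11 to 3.28 over the fits that leave out 1 tissue sample). miR-29b lost both calls when only tags identical to the 23-nt sequence were counted, with a slope of 0.019 and a late change of 1.05. The loss rested on library E10 run 2, which held 463 of the 608 identical reads, and the values without it were 1.72 and 5.44. Both then passed the threshold, but the sequence passed the filter only through P14 and P28. These calls are therefore no support for a rise of the 23-nt form. DESeq2 gave no adjusted p for the late change of miR-29b.

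The number of late changes called over all sequences, 159, was 9 without TMM, 72 in run 1 alone, 53 with identical tags (12.5% of 424, and 24.7% of 409 with library E10 run 2 left out as well), 23 with primer and candidate sequences only, and 4 to 172 over the fits that leave out 1 tissue sample, where the lowest counts were 4 without P28, 14 without P14, 73 without P7 and 94 without E17. The number of slopes called, 244, was 128 in run 1 alone and 48 with primer and candidate sequences only, where fewer sequences were tested. In the fit of all 18 libraries with the run number as a replicate block, 271 late changes and 341 slopes were called. That fit treats 2 runs of 1 tissue sample as separate samples, so its p-values are too small. Deviations of same-numbered runs correlated above 0.1 in 35 of 36 pairs of tissue samples (0.0739 to 0.966, median 0.37), which is not every pair, and no label ties a run number to a shared batch, so the pairing was not taken into the main fits although most runs of a number deviate together and miR-29a and miR-29b were higher in run 1 in 9 of 9 tissue samples. The block changed no call of a member, and it made both values of rno-miR-29c-5p pass the threshold. The alternatives without library E10 run 2 (also with identical tags) or without run 1 of the first P0 sample were chosen after seeing the data, and with all tags they too changed no call of a member. Without library E10 run 2 the slope of rno-miR-29c-5p passed the threshold (0.42, edgeR adjusted p = 0.0189), and without run 1 of the first P0 sample the late change of rno-miR-29a-5p missed it (2.41, edgeR adjusted p = 0.0584).

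The late change of the ratio of miR-29a to miR-29c passed the threshold with identical tags (1.41) and with tags of at least 20 nt (1.40), and that of miR-29c to miR-29b with tags of at least 20 nt (-1.62), since fewer values were adjusted together there. Some differences without a call reversed. The late minus earlier share of miR-29b reads at the end was 0.112 percentage points in run 2 alone and -0.373 to 0.212 over the fits that leave out 1 sample, that past the end was -0.267 to 0.0458, that of miR-29a at the end was -1.39 to 0.746, and that of shifted miR-29b 5' ends was -1.72 with tags of either run. Leaving out a late sample allows no p under 0.0714 in these tests. Of the 3 sequences most like each member, Spearman's correlation shared 1 for each, and no minimum level shared 0 for miR-29a and miR-29b and 1 for miR-29c. Of the levels of members in TPM under other tag rules, scales or runs, 137 moved by less than 1 SD and 25 by more. The 5' arms of Mir29a, Mir29b2 and Mir29c held 216, 272 and 468 reads by the annotated ends, against 211, 270 and 460 as exact parts of the hairpins. Depth limited miR-29b most, with 23 to 294 reads per earlier library in tags of both runs.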
